A study of Arabidopsis thaliana with 8 samples.

Results

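Starch synthesis and breakdown were followed through 31 genes, picked by AGI code as the enzymes, carriers and granule proteins that build and degrade transitory starch in Arabidopsis thaliana, out of 22281 genes with a transcript level. All 31 were found and all passed the minimum mean level of 1 FPKM used for testing. The RNA came from reproductive tissue of strain Col-0, rich in inflorescence and floral meristems with flowers up to stage 8. Growth was in long days (16 h of light, 8 h without) at a temperature of 20 to 22 °C. The wild type gave 4 libraries (replicates 1 to 4), and plants carrying mutations in LSH1, LSH3 and LSH4, 3 genes of the plant-specific ALOG family, gave 4 (replicates 5 to 8). The labels describe neither the alleles nor the age of the plants, nor the hour of harvest. Replicates are called independent without saying which plants or how many each holds, so a p-value here speaks only of the scatter among these 8 libraries.

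Starch is the main carbohydrate store of plastids. It is made from glucose phosphates through ADP-glucose, built into branched chains by synthases and branching enzymes, and trimmed by debranching enzymes into a form that packs into granules. To break it down, dikinases add phosphate to the granule surface and phosphatases take it off again, while amylases release maltose, which leaves the plastid and is processed in the cytosol. Transcripts of many breakdown enzymes are known to cycle over the day in leaves of this species. Starch also serves as a short-term reserve in growing floral tissue.

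None of the 31 starch genes passed the test for a change in the mutant. With limma on log2(FPKM + 1) and Benjamini-Hochberg adjustment over all genes, 0 rose and 0 fell, and the smallest adjusted p among them was 0.471, that of GBSS1. In the same fit 33 of 17706 genes passed, 0.186% of those tested (0.136% higher and 0.0508% lower). Before adjustment, 0 of the starch genes had a p under 0.05, which 12.5% of all tested genes had. In none of the 31 did the 4 mutant libraries all lie on one side of the 4 wild-type libraries, which happened in 7.89% of all tested genes. None stands in the authors' deposited table of differential genes, which lists 3.69% of the genes with an FPKM value. No count model was run here, since no read counts were used.

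The intervals say how large a difference could have gone unseen. For 30 of the 31 genes the 95% limma interval of the log2 fold change lay within 1 unit of 0, as it did for 89.6% of all tested genes, and for 25 it lay within 0.5 units, as for 64.6% of all. BAM3 was the gene outside 1 unit, and APL1, ISA3, BAM1, GBSS1 and SS3 were the others outside 0.5 units. The log2 fold changes ran from -0.66 to 0.33 with a median of 0.05, and 20 were positive and 11 negative. Over all tested genes the median was -0.01 and 47.6% were positive. Within a genotype the starch genes had a median SD of 0.14 log2 units, against 0.17 over all tested genes. The most even was ISA1, with 0.06, and the most uneven BAM3, with 0.81.

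**Figure D1:**
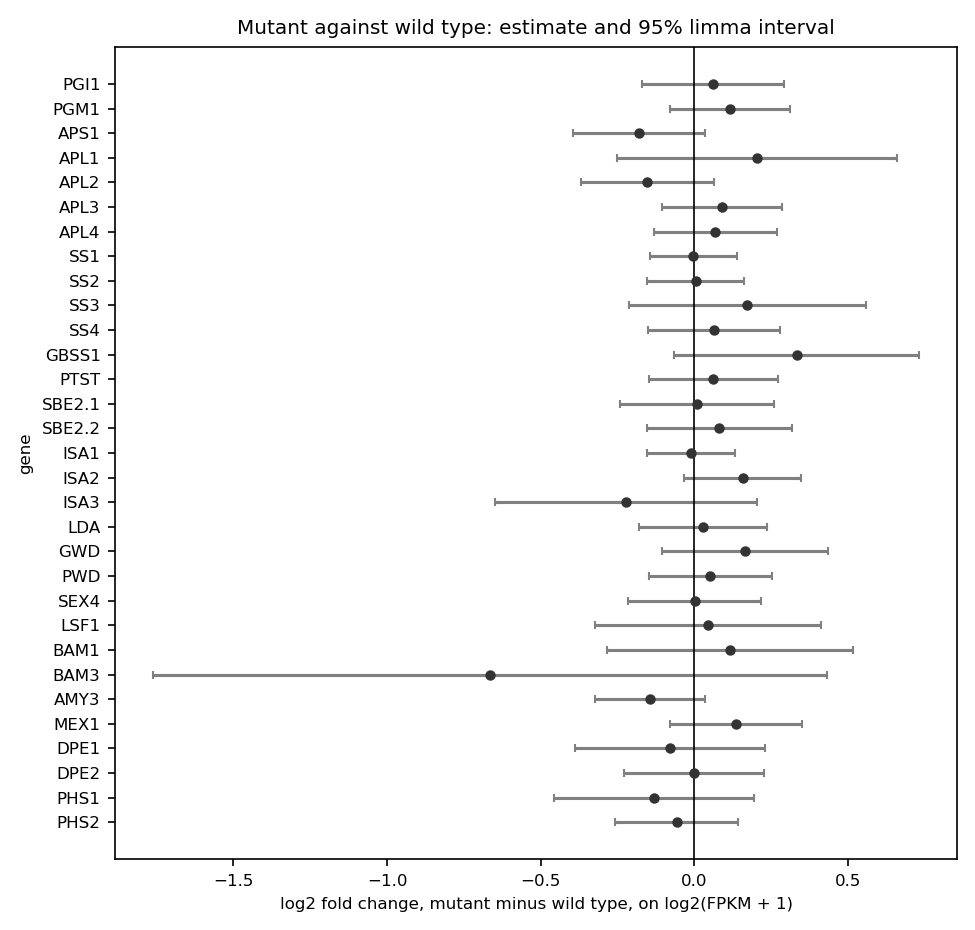
Log2 fold change of each of the 31 starch genes, mutant minus wild type on log2(FPKM + 1), on the x axis, with 1 gene per line on the y axis; points are limma estimates and bars their 95% intervals (4 libraries per genotype). All 31 bars cross 0, and the bar of BAM3, from -1.76 to 0.43, is the widest.

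Some facts of the whole data set bear on these values. Of the mutated genes, LSH4 (3.79 to 7.25 FPKM in the mutant, 19.2 to 24.0 in wild type) and LSH1 (2.2 to 4.26, and 7.38 to 11.9) fell (limma adjusted p = 0.0077 and 0.042), while the libraries overlapped for LSH3 (10.2 to 15.6, and 10.5 to 23.3). The meristem marker STM was at 76.8 to 98.6 FPKM in wild type and, without overlap, at 62.1 to 69.0 in mutants, a log2 fold change of -0.37 (limma adjusted p = 0.145). The authors' deposited table lists STM with -0.38 and an adjusted p of 0.0074. The flower markers AP1 (32.3 to 121 FPKM) and LFY (10.2 to 33.0) were above 1 FPKM in all libraries, while the stem cell genes WUS (0.25 to 1.70) and CLV3 (0.15 to 1.57) were low. The summed level of 20 green tissue markers was 15404 to 26021 FPKM in wild type and 22845 to 29805 in the mutant. All 20 had positive log2 fold changes with 0 called, and 10 had an unadjusted p under 0.05. Of all tested genes 47.6% were positive, 0.186% were called and 12.5% had such a p. In bulk tissue fewer cells of a type and less RNA per cell cannot be told apart. Mutant replicate 8 had 2461 genes at 0, and the other libraries 1233 to 1884. Touch and early stress genes were highest in wild type replicate 1, with a summed level of 1445 FPKM over 12 genes, against 85.1 in mutant replicate 8. Of the 10 tested ones, all had negative log2 fold changes, 7 had an unadjusted p under 0.05 and 0 were called. In 5 of the 10 the genotypes did not overlap, against 7.89% of all tested genes. The authors' deposited table lists 6 of the 12, and 3.69% of the genes with an FPKM value.

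FPKM counts fragments per length of gene, so levels of different genes can be set beside each other. Summed over the 31 genes, the level was 1033, 939.8, 938 and 894 FPKM in wild type replicates 1 to 4 and 933, 1008, 918 and 1001 in mutant replicates 5 to 8. The genotypes therefore overlapped in their total. The middle gene had 23.1 FPKM, against 17.6 over all tested genes. In 23 of the 31 genes the highest library was less than 1.5 times the lowest, and in 2, BAM3 and APL1, it was 2 times or more.

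**Figure D2:**
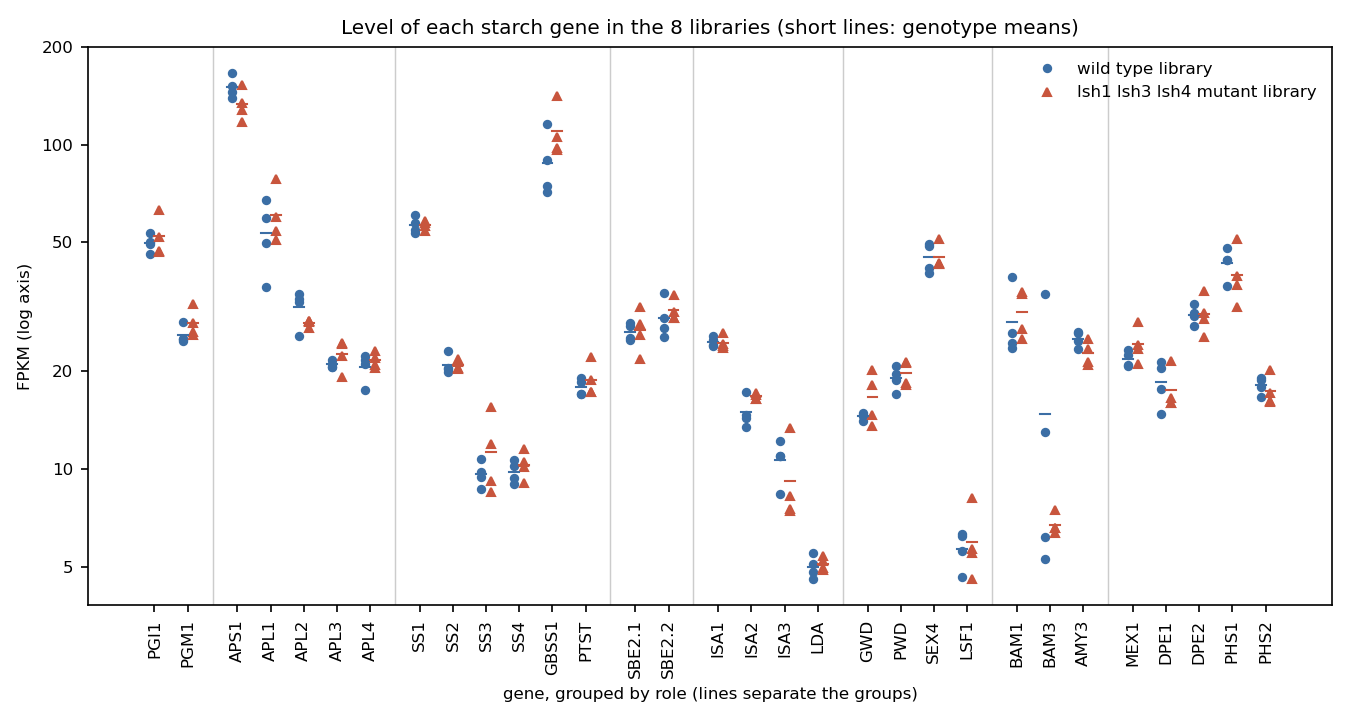
FPKM on a log axis for each starch gene on the x axis, ordered by role; circles are wild-type libraries, triangles mutant libraries and short lines the genotype means (n = 4 each). Levels run from 4.57 FPKM, the lowest library of LDA, to 167, the highest of APS1, and the symbols of both genotypes intermingle in every column.

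The genes of substrate supply had intervals within 0.5 log2 units of 0. PGI1 (AT4G24620), the plastid phosphoglucose isomerase, had 49.7 ± 2.95 FPKM (wild type) against 52.2 ± 7.57 (mutant). Values with ± are means with SD over 4 libraries, and where a pair is given the wild type comes first. PGM1 (AT5G51820), the plastid phosphoglucomutase without which leaves of this species make almost no starch, had 25.9 ± 1.65 and 28.2 ± 2.90 FPKM. Their log2 fold changes were 0.06 (95% interval -0.17 to 0.29) and 0.12 (-0.08 to 0.31).

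ADP-glucose pyrophosphorylase makes the glucosyl donor of starch synthesis and is built of small subunits, here APS1, and large subunits, APL1 to APL4. APS1 (AT5G48300), the most abundant of the 31 transcripts, had 167, 145, 151 and 139 FPKM in wild type replicates 1 to 4. In mutant replicates 5 to 8 it had 128, 153, 134 and 117. The values of mutant replicates 5, 7 and 8 lay below every wild-type value, while replicate 6 lay above 3 of them. Its log2 fold change was -0.18 (SE 0.09, limma adjusted p = 0.472), with an interval from -0.39 to 0.04.

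APL1 (AT5G19220), the main large subunit of leaves, had 67.4, 49.7, 59.6 and 36.3 FPKM in the wild type, against 59.8, 78.6, 50.9 and 54.2 in mutants. Wild type replicate 4 was the lowest and mutant replicate 6 the highest library, with the others mixed between them. The log2 fold change was 0.20 (SE 0.20, limma adjusted p = 0.704), with an interval from -0.25 to 0.66. It was -0.20 (adjusted p = 0.808) with the green tissue list mean as a covariate and 0.62 (adjusted p = 0.356) with the touch and early stress list mean, so its sign and size depend on which is used. APL2 (AT1G27680) had 31.6 ± 4.01 FPKM in the wild type against 28.2 ± 0.69 in mutants. The large subunits APL3 (AT4G39210; 21.0 ± 0.52 against 22.6 ± 2.46 FPKM) and APL4 (AT2G21590; 20.7 ± 2.13 against 21.7 ± 1.19 FPKM), which are known more from sink tissue, had similar levels to each other.

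APL1 made up 32.2% to 52.2% of the summed large subunit FPKM, and APL2 18.0% to 29.7%. The APL1 share was lowest in wild type replicate 4 and highest in mutant replicate 6. APL3 and APL4 held 15.6% to 18.8% and 12.6% to 19.3%. The ratio of APS1 to the 4 large subunits together was 1.20, 1.14, 1.19 and 1.24 in wild type. In the mutant it was 0.96, 1.02, 1.12 and 0.90. Here each mutant library lay below each wild-type library, by a narrow margin between mutant replicate 7 and wild type replicate 2. This ratio was looked at after the single genes had been seen and no test was made of it, and neither its numerator nor any part of its denominator passed the test.

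**Figure D3:**
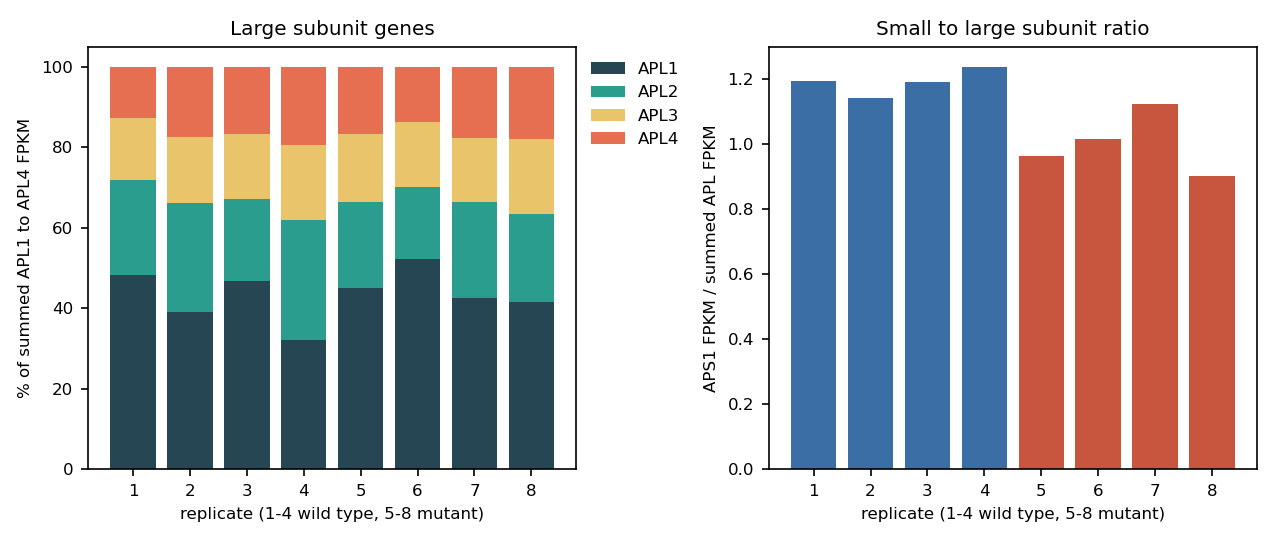
Left, the share of each large subunit gene in the summed FPKM of APL1 to APL4 (percent, stacked bars); right, APS1 FPKM divided by that sum; both by library, with replicates 1 to 4 wild type and 5 to 8 mutant. APL1 holds 32.2% to 52.2% of the sum, and the ratio is 1.14 to 1.24 in wild type and 0.90 to 1.12 in the mutant.

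The soluble starch synthases, which lengthen glucan chains, gave estimates near 0 for SS1 and SS2 and small positive ones for SS3 and SS4. SS1 (AT5G24300), which makes short chains, had 56.5 ± 3.36 FPKM (wild type) against 56.4 ± 1.75 (mutant), with an interval of the log2 fold change from -0.14 to 0.14. SS2 (AT3G01180), which makes chains of middle length, had 21.0 ± 1.46 and 21.0 ± 0.69 FPKM (interval -0.15 to 0.16). SS4 (AT4G18240), needed to start granules, had 9.80 ± 0.75 and 10.3 ± 1.03 FPKM. SS3 (AT1G11720), which makes long chains, had 9.68 ± 0.85 and 11.3 ± 3.19 FPKM, and its highest value, 15.5, was that of mutant replicate 8. The sequences of a family can share reads, and the counting rule is not given in the sources used here, so close relatives are less certain than single genes.

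GBSS1 (AT1G32900), the granule-bound synthase that makes amylose, had the largest positive log2 fold change of the 31 and did not pass the test. It had 116, 89.6, 74.7 and 71.6 FPKM in the wild type, against 97.4, 142, 106 and 96.6 in mutants. The mutant values all lay above 3 of the wild-type values, but wild type replicate 1 lay above 3 of the mutant ones. The log2 fold change was 0.33 (SE 0.17, limma adjusted p = 0.471), with an interval from -0.06 to 0.73. Without wild type replicate 1 it was 0.47 (adjusted p = 0.307), and without mutant replicate 6 it was 0.21 (adjusted p = 0.587). PTST (AT5G39790), named protein targeting to starch in the RefSeq annotation and known to bring GBSS1 to the granule, had 17.9 ± 1.03 and 18.8 ± 2.30 FPKM. GBSS1 held 43.2% to 59.3% of the summed FPKM of the 5 synthases, with a mean of 47.1% ± 4.76 in wild type and 52.4% ± 4.94 in the mutant.

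GBSS1 is known as a target of the dawn-phased clock regulators CCA1 and LHY in this species, and these differed between libraries of the same genotype. The mean level of the pair was 7.58, 7.16, 6.82 and 6.51 log2(FPKM + 1) units in wild type replicates 1 to 4. In mutant replicates 5 to 8 it was 7.48, 7.52, 7.37 and 6.54. In wild type the libraries stood in the same order for GBSS1 and for this pair, with replicate 1 highest and replicate 4 lowest. In the mutant, replicate 6 was highest and replicate 8 lowest in both, while replicates 5 and 7 changed places. The levels followed less closely than the order. Mutant replicates 5 and 8 had 97.4 and 96.6 FPKM of GBSS1, with the pair at 7.48 and 6.54. Wild type replicate 4, with the pair at 6.51, had 71.6 FPKM of GBSS1. With the pair's mean as a covariate, a setting chosen after the data were seen, the log2 fold change of GBSS1 was 0.24 (limma adjusted p = 0.333). It was 0.20 (adjusted p = 0.834) with the green tissue list mean as a covariate and 0.68 (adjusted p = 0.267) with that of the touch and early stress list. The part of harvest time in GBSS1 was not tested.

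**Figure D4:**
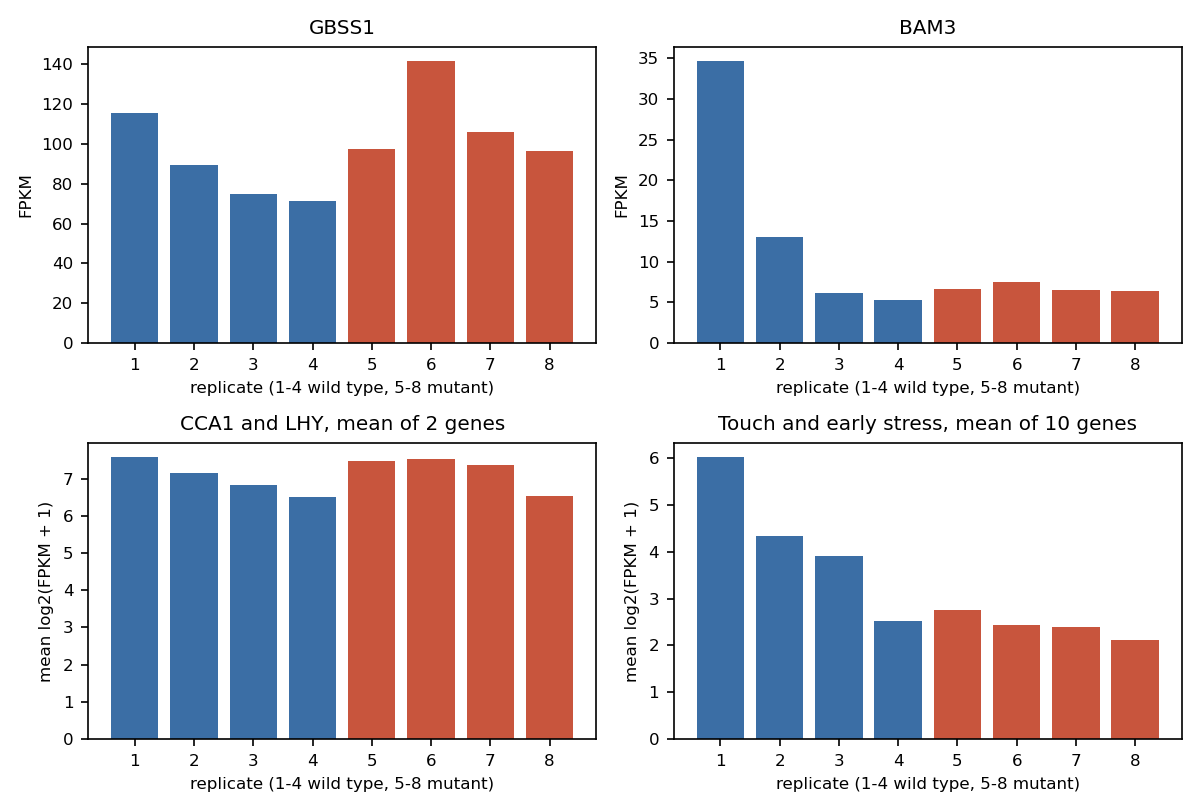
Top, FPKM of GBSS1 and BAM3 in each library; bottom, the mean log2(FPKM + 1) of the clock genes CCA1 and LHY and of 10 tested touch and early stress genes; blue bars are wild type (replicates 1 to 4) and red bars mutant (5 to 8). In wild type the 4 libraries stand in the same order in all 4 panels, with replicate 1 highest, at 34.6 FPKM for BAM3.

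Among the branching and debranching genes ISA1 was the most even of all 31 and ISA3 the most spread of its class. The branching enzymes SBE2.1 (AT2G36390) and SBE2.2 (AT5G03650), which introduce the branch points, had 26.5 ± 1.61 against 26.9 ± 4.13 FPKM and 29.2 ± 4.1 against 30.8 ± 2.39 FPKM. SBE2.2 held 47.4% to 58.4% of their sum. ISA1 (AT2G39930), the catalytic part of the isoamylase that trims growing chains, had 24.7 ± 0.87 and 24.5 ± 1.23 FPKM, with an interval from -0.15 to 0.13 log2 units. Its partner ISA2 (AT1G03310) had 14.97 ± 1.65 and 16.8 ± 0.35 FPKM (log2 fold change 0.16, limma adjusted p = 0.474). LDA (AT5G04360), the limit dextrinase, was the lowest of all, with 4.997 ± 0.41 and 5.11 ± 0.24 FPKM.

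ISA3 (AT4G09020), the isoamylase that debranches glucans during breakdown, had 8.35, 11.0, 11.0 and 12.2 FPKM in the wild type, against 7.45, 8.29, 7.52 and 13.4 in mutants. Mutant replicates 5, 6 and 7 lay below every wild-type library and replicate 8 above all of them. The log2 fold change was -0.22 (SE 0.19, limma adjusted p = 0.652), and without mutant replicate 8 it was -0.40 (adjusted p = 0.295).

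The 4 genes of glucan phosphorylation and its reversal had positive estimates, none called. GWD (AT1G10760; SEX1 in the RefSeq table), the dikinase that phosphorylates starch first, had 14.5 ± 0.32 FPKM in the wild type against 16.6 ± 3.05 in mutants, where replicates 5 (18.1) and 8 (20.2) were above and replicates 6 (13.6) and 7 (14.6) near the wild-type range of 14.1 to 14.8. PWD (AT5G26570), which acts after GWD, had 19.1 ± 1.60 and 19.8 ± 1.72 FPKM. The phosphatase SEX4 (AT3G52180) had 45.0 ± 4.75 and 45.0 ± 4.15 FPKM, a log2 fold change of 0.00 with an interval from -0.21 to 0.22. LSF1 (AT3G01510), a SEX4 relative, had 5.69 ± 0.76 and 5.98 ± 1.52 FPKM. The 4 log2 fold changes had a median of 0.05.

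The amylases held the most variable starch gene. BAM3 (AT4G17090), a plastid beta-amylase that releases maltose at night and is known to be induced by cold, had 34.6, 13.0, 6.18 and 5.29 FPKM in wild type. In the mutant it had 6.60, 7.47, 6.57 and 6.35 FPKM. Wild type replicates 1 and 2 lay above all mutant libraries and replicates 3 and 4 below all of them. The log2 fold change was -0.66 (SE 0.48, limma adjusted p = 0.594), and without wild type replicate 1 it was -0.15 (adjusted p = 0.867).

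In wild type the mean level of the touch and early stress genes stood in the same library order as BAM3. GBSS1 and the CCA1 and LHY mean shared that order. Over 10 tested genes the touch and early stress mean was 6.02, 4.33, 3.90 and 2.52 log2 units. In the mutant it was 2.76, 2.43, 2.39 and 2.12, highest in replicate 5, while BAM3 was highest in replicate 6. Adding the touch and early stress mean as a covariate gave a log2 fold change of BAM3 of 0.62 (limma adjusted p = 0.460), so the sign turned. Of the 20 alternatives this was the 1 in which the sign of BAM3 changed. With the mean of CCA1 and LHY as a covariate the log2 fold change was -0.93. Fits that left out 1 library gave -0.98 to -0.15. The touch and early stress mean was higher in wild type replicates 1 to 3 than in every mutant library. Genotype and this covariate can therefore not be cleanly told apart, and the 0.62 depends on that fit. The part of handling in the BAM3 level was not tested. BAM1 (AT3G23920), a beta-amylase known for its role in guard cells and under stress, was also highest in wild type replicate 1. It had 28.3 ± 7.23 FPKM (wild type) against 30.5 ± 5.21 (mutant). AMY3 (AT1G69830), a plastid alpha-amylase, had 25.2 ± 1.39 and 22.8 ± 1.94 FPKM (log2 fold change -0.14, limma adjusted p = 0.489). BAM3 made up 35.7% of the summed FPKM of these amylases in wild type replicate 1, whereas the other libraries had 9.59% to 20.7%. Of 5 guard cell markers, FAMA had a mean above 1 FPKM (8.74 to 17.5) and the other 4 did not. The summed level of all 5, mostly FAMA, was 10.7 to 19.9 FPKM in wild type and 16.3 to 20.3 in the mutant. The low markers went different ways. GC1 (wild type 0 to 0.40 FPKM, mutant 0.78 to 1.71) and HT1 (0.13 to 0.38, and 0.45 to 0.79) were higher without overlap. KAT1 (1.05 to 1.46, and 0.50 to 0.89) was lower without overlap, and MYB60 (0.15 to 0.81, and 0.80 to 2.16) overlapped. These 4 were under the minimum for testing. Of all tested genes 7.89% showed no overlap. The authors' deposited table lists MYB60 with a log2 fold change of 1.90 and KAT1 with -0.87. It holds 3.69% of the genes with an FPKM value. The part of guard cells in BAM1 was not tested.

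Maltose and glucan processing gave 1 positive and 4 negative estimates. MEX1 (AT5G17520), the maltose exporter of the plastid envelope, had 21.9 ± 1.23 FPKM in the wild type against 24.2 ± 3.06 in mutants. DPE1 (AT5G64860), the plastid enzyme that rearranges short glucans, had 18.6 ± 2.94 and 17.5 ± 2.67 FPKM. DPE2 (AT2G40840), the cytosolic enzyme that uses maltose, had 30.0 ± 1.84 and 30.1 ± 4.1 FPKM. PHS1 (AT3G29320), the plastid glucan phosphorylase, had 43.2 ± 4.83 and 39.8 ± 8.18 FPKM, and its cytosolic counterpart PHS2 (AT3G46970) had 18.1 ± 1.09 and 17.4 ± 1.88. PHS1 held 65.7% to 74.3% of the phosphorylase FPKM. The intervals of these 5 genes ran from -0.46 at the lowest to 0.35 at the highest.

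Single libraries stood out across many starch genes. Mutant replicate 8 held the highest of the 8 values in 16 of the 31 starch genes (51.6%), whereas it did so in 22.0% of all tested genes. These were ISA3, GWD, SEX4, LSF1, MEX1, DPE1, DPE2, PHS1, PHS2, SS3, SS4, SBE2.1, ISA1, PTST, PGM1 and APL4. It held the lowest value of 1, APS1 (3.23%, against 23.6% of all tested genes). After rescaling to TPM it held the highest value of 19. Wild type replicate 4 held the lowest value in 10 genes (32.3%, against 13.0% of all tested genes), among them GBSS1, APL1 and PGI1. Mutant replicate 6 was highest in GBSS1, APL1, PGI1 and APL3 and lowest in SS3, SBE2.1, GWD, DPE2 and PHS1. These were 12.9% and 16.1% of the 31, near its shares of 15.7% and 14.1% over all tested genes. After rescaling to TPM wild type replicate 4 held the lowest value in 7 genes and mutant replicate 6 in 9, in place of 10 and 5. These counts describe libraries and were not tested.

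Without mutant replicate 8 the median log2 fold change of the 31 genes was 0.01, 16 were positive, and 0 were called. That fit called 8 of all tested genes. The clock genes differed between the same libraries. PRR7, a clock gene that peaks after CCA1 and LHY, had 12.7, 20.1, 26.8 and 27.2 FPKM in the wild type, against 23.1, 18.2, 23.6 and 31.6 in mutants. PHS1 had 36.5, 44.0, 44.1 and 48.1 FPKM in the wild type, against 39.2, 31.7, 37.0 and 51.1 in mutants. In wild type PRR7 and PHS1 stood in the same order of libraries, and in the mutant both were highest in replicate 8 and lowest in replicate 6. Of the other tested clock genes, RVE8 stood in wild type in the order of CCA1 and LHY (74.4, 65.2, 44.5 and 42.4 FPKM). TOC1 (21.6, 20.7, 13.5 and 15.9 FPKM), PRR9 (10.5, 8.46, 5.57 and 6.34), GI, LUX and ELF3 stood neither in that order nor in that of PRR7. PRR7 and PHS1 were picked and set side by side after their values were seen, and the part of harvest time was not tested.

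**Figure D5:**
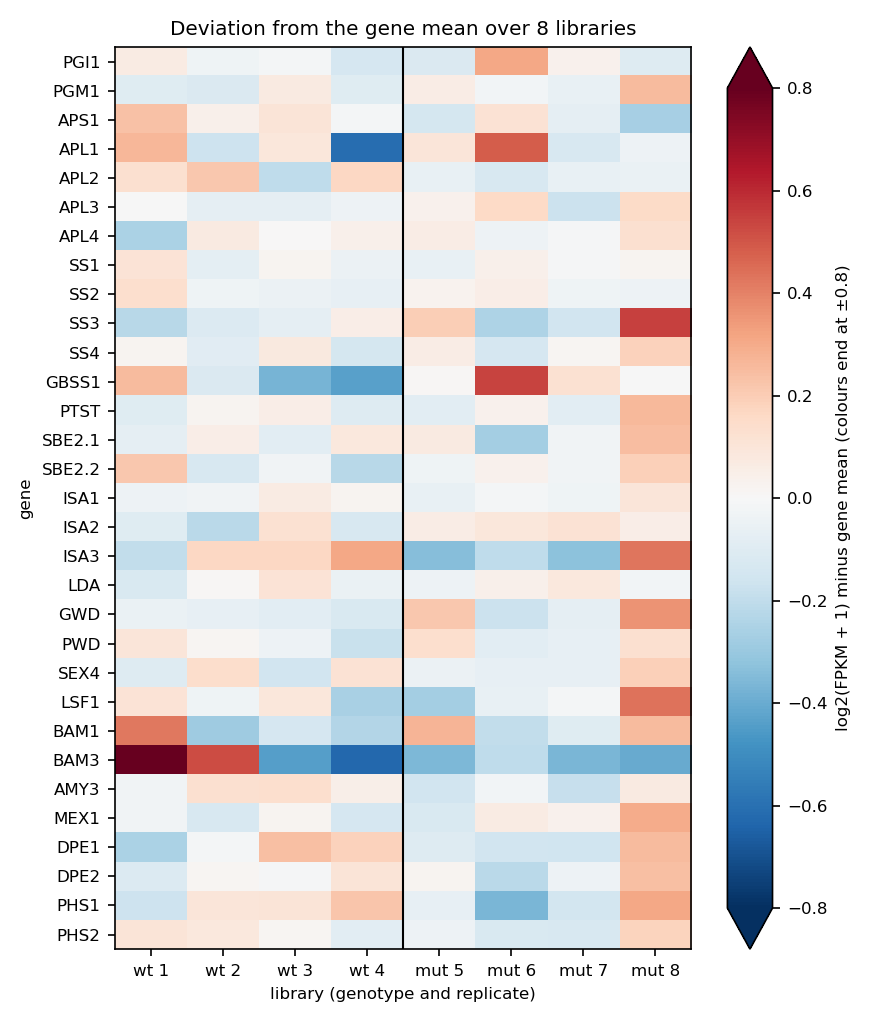
Deviation of each library from the gene's mean over all 8 libraries, in log2(FPKM + 1) units, for the 31 starch genes (lines) and 8 libraries (columns, wild type left of the black line); red is above and blue below the mean, and colours end at 0.8 units either way. Mutant replicate 8 is above the mean in 23 of the 31 genes and mutant replicate 7 below it in 25.

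Related genes outside the 31 were also counted. Of 29 further genes of starch metabolism (other amylases, granule proteins, plastid carriers and cytosolic isoforms), 27 were tested, and 0 were higher and 0 lower. An unadjusted limma p under 0.05 was found for 3 of the 27, and for 12.5% of all tested genes. The median log2 fold change of the 27 was 0.04, with 18 positive and 9 negative values. Of the 3 with such a p, TPT and APS2 had positive values and BE1 a negative one. TPT (AT5G46110), the triose phosphate carrier of the plastid envelope, had 295, 237, 314 and 237 FPKM in the wild type, against 309.7, 347, 303 and 378 in mutants (log2 fold change 0.31, limma adjusted p = 0.353). APS2 (AT1G05610), a further small subunit gene of ADP-glucose pyrophosphorylase, had 1.72, 1.44, 1.23 and 1.11 FPKM in the wild type, against 2.05, 2.09, 1.71 and 2.04 in mutants (0.33, adjusted p = 0.371). The genotypes overlapped in both. BE1 (AT3G20440), a branching enzyme-like gene needed for embryo development, had 13.9, 12.9, 11.6 and 11.6 FPKM in the wild type, against 7.79, 10.5, 9.56 and 10.1 in mutants. The 4 mutant values were all under the lowest of the wild type (log2 fold change -0.37, SE 0.11, limma adjusted p = 0.213). BE1 was the 1 gene of the 27 without overlap, which 7.89% of all tested genes showed. It was also the 1 gene of these 29 in the authors' deposited table, with a log2 fold change of -0.40 and an adjusted p of 0.0421 there. That table lists 3.69% of the genes with an FPKM value.

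Of 12 clock genes 9 were tested, and 0 were higher and 0 lower (median 0.11). ELF4 was listed at 0 in all 4 mutant libraries and had 0.07 to 0.35 FPKM in wild type, under the minimum for testing. Of 6 genes known to be raised by sugar starvation, 5 had values and were tested, with 0 higher and 0 lower, 3 positive and 2 negative. ASN1, an asparagine synthetase gene, had 21.6 ± 12.4 FPKM (wild type) against 37.7 ± 16.5 (mutant), with a log2 fold change of 0.85 and a limma adjusted p = 0.495. BCE2, of branched-chain amino acid breakdown, had 42.3 ± 7.24 and 35.5 ± 4.69 FPKM (-0.24, adjusted p = 0.511). DIN10 had 12.5 ± 7.79 and 6.73 ± 1.61 FPKM (-0.65, adjusted p = 0.513), and the other two, SEN1 and AT1G21400, had log2 fold changes of 0.41 and 0.23.

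A fit that weighted the libraries gave the only calls among the 31 in the alternatives tried. It gave weights of 4.55 to wild type replicate 2 and 4.38 to mutant replicate 7, and 0.29 to 0.96 to the other 6 libraries, so it rests largely on that pair. ISA2 was then higher (log2 fold change 0.26, limma adjusted p = 0.0325), and ISA3 (-0.42, adjusted p = 0.0368) and AMY3 (-0.25, adjusted p = 0.0280) were lower. In that fit 13.1% of all tested genes were called, beside these 3 of the 31.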

How the data were processed

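Poly-A RNA was sequenced in 8 libraries, 4 per genotype, grouped and numbered from the sample titles. The deposited table gives FPKM per gene and library; the submitters' processing notes name RSEM, DESeq2 and build TAIR10, and the aligner, annotation and filters are not stated in what was used here. Median-of-ratios factors of the deposited FPKM were the same in all 8 libraries (1.002), so that scaling was already in the values. Read totals are unknown, so counting error could not be given; steps between low values put the reads behind 1 FPKM at 1.41 (wild type replicate 2), 1.37 (wild type replicate 4) and 1.23 (mutant replicate 6) times those of wild type replicate 1, and were not settled elsewhere. For 822 genes a second deposited table lists, per the file headers, the authors' log2 fold change with its p-value before and after adjustment.

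The fit used limma 3.58.1 (R 4.3.3) on log2(FPKM + 1) of the 17706 genes whose mean FPKM reached 1 (mean-variance trend, 2-sided, Benjamini-Hochberg over all genes, threshold 0.05). Fold changes on this scale understate those of low genes. The code was tested on simulated data. Alternatives were other pseudocounts, filters, scalings, moderation, library weights, covariates and leaving out each library. The starch genes and all lists were chosen with earlier results of these data known. Values in every library were to be given for genes called, in the authors' deposited table, not overlapping or with an unadjusted p under 0.05, for the 3 highest levels and for the 2 largest log2 fold changes each way; other library values were chosen after being seen. All 31 codes matched the RefSeq table of TAIR10.1, used for names only; promoter and protein sequences were not analysed here. Plots used matplotlib 3.10.9 in Python 3.11.15.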

Additional observations from a re-analysis of the deposited data

Results flagged for a closer look

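In 7 of 62 genotype groups of 4 libraries (31 genes in 2 genotypes), 1 library was set apart from the other 3 by Dixon's test of the gap over the range. Chance flags about 1 in 20 independent groups. These groups share the same 8 libraries, so 7 of 62 cannot be read as an excess over that rate. The test looks at the gap relative to the range, so a flagged gap can be small in FPKM, as for APL2. Mutant replicate 8 was the high library for 3 of the flagged groups, with SEX4 at 51.2 FPKM (next 43.3), ISA3 at 13.4 (next 8.29) and DPE1 at 21.5 (next 16.6). Wild type replicate 1 was the high library for 2, with BAM1 at 39.1 FPKM (next 26.2) and SS2 at 23.1 (next 20.5). PGM1 was high in wild type replicate 3, at 28.4 FPKM (next 25.2), and APL2 was low in mutant replicate 6, at 27.2 FPKM against 28.5 to 28.6 in the other mutant libraries.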

How the results depend on the processing

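Over 20 alternatives the count of starch genes called by limma stayed at 0 higher and 0 lower, except with library weights, where 1 was higher and 2 lower. Median-of-ratios scaling could not change this count, since its factors were the same in all libraries. Some other fits called few genes of any kind (0 with the green tissue covariate, 2 with the touch and early stress covariate). A count of 0 starch genes says little in those. Each of the 8 fits that left out 1 library gave 0 and 0, and the median log2 fold change ran from 0.01 to 0.06 in them. It was -0.01 with library weights, -0.02 with the green tissue list mean as a covariate and 0.04 to 0.06 otherwise. At an adjusted p under 0.10, chosen after the data were seen, 0 were called either way. For 11 of the 31 genes the sign of the log2 fold change held in every alternative (among them GBSS1, APS1, ISA3, AMY3 and PHS1), and for 20 it changed in at least 1, with no call on either side. The calls over all genes moved far more, from 0 without wild type replicate 2 to 2323 with library weights, against 33. No paired analysis was possible because the genotypes share no replicate number. Read totals are unknown, so the share of counting error in these values could not be given.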
